A study of Mus musculus with 4 samples.

Results

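RNA was read from EGFP+ cells of the bone marrow of mice that had received a stem and progenitor cell transplant, and 10 genes of the step from rest into the cell cycle are described here. They are the Cip/Kip inhibitors Cdkn1b (p27) and Cdkn1c (p57), the INK4 inhibitors Cdkn2c (p18) and Cdkn2d (p19), the D cyclins Ccnd1, Ccnd2 and Ccnd3, their partner kinases Cdk4 and Cdk6, and Ccng2, cyclin G2. The genes were chosen by symbol, and all 10 were found among the 23284 symbols in the files. The donor cells were LSK cells (Lin- Sca1+ c-Kit+, the marrow fraction with stem cells and multipotent progenitors) from CAG-EGFP mice, in which a broadly active promoter drives the green fluorescent protein. Wild-type recipients received 100000 of them. One group was untreated, here the control recipients. The other had been given 5-FU (5-fluorouracil, a pyrimidine analog that is toxic to dividing cells) at 200 mg/kg into a vein 2 days earlier, and marrow mononuclear cells were taken 24 hours after the transplant in both groups. Each group has 2 biological replicates, here called recipients 1 and 2, and 1 library per replicate. These names stand for the replicates, and whether each replicate was 1 mouse is not known here. The comparison sets cells placed in a marrow stressed by 5-FU against cells placed in an unperturbed one. The labels used here do not name the strain or age of the mice. The second sort was on EGFP alone, so a library can hold any cell that carries EGFP.

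A resting cell enters the cycle when D cyclins bind Cdk4 or Cdk6 and the complexes phosphorylate the retinoblastoma protein, which frees E2F factors to switch on genes of DNA replication. INK4 proteins bind Cdk4 and Cdk6 and keep the D cyclins off, whereas Cip/Kip proteins bind whole cyclin and kinase complexes and act most strongly on those that contain Cdk2. Stem cells of adult marrow are mostly at rest. Cdkn1c and Cdkn1b are known for holding them there, Cdkn2c for limiting their self-renewal, and Cdk6 for setting how fast they leave rest. Cyclin G2 is an unusual cyclin that is abundant in resting cells and goes with arrest, and FOXO factors are known to activate its gene.

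Transcripts of Cdk4 and of 2 of the 3 D cyclins were higher in cells from 5-FU recipients, cyclin G2 was lower, and none of the 4 inhibitors passed the test in limma (0 also at an unadjusted p under 0.05). Cdk4, Ccnd1 and Ccnd3 rose, by 1.27, 1.33 and 0.89 in log2 fold change of FPKM + 1, and Ccng2 fell by 1.36. FPKM are read counts divided by transcript length and scaled for the size of the library. Levels of different genes can thus be set side by side, though some of the genes share exon bases with others. A gene passed at an adjusted p under 0.05 in limma over all 11496 genes with at least 1 FPKM in 2 or more libraries, and all 10 genes were among those tested. In that test 3 of the 10 were higher and 1 was lower, where 8.23% of all tested genes were higher and 4.67% lower. An unadjusted p under 0.05 in limma was more common, at 3607 of the 11496 tested genes. The median log2 fold change was 0.50 over the 10 genes and -0.01 over all tested genes. Both 5-FU libraries were above both control libraries for 5 of the 10 genes and below them for 2, and for 3 genes the groups overlapped. Over all tested genes these shares were 31.4% and 30.7%. The 4 calls rest on both control libraries: without control recipient 1 or without control recipient 2, 0 of the 10 genes passed in limma (4 had an unadjusted p under 0.05 each time), while all 4 passed with either 5-FU library left out. Calls over all genes moved in the same way: 0.765% and 0.80% of tested genes were higher and 0.331% and 0.374% lower without control recipient 1 or 2, against 18.5% and 9.08% higher and 16.3% and 6.65% lower without 5-FU recipient 1 or 2. The log2 fold changes without control recipient 1 or 2 were 1.36 and 1.17 for Cdk4, and 1.45 and 1.22 for Ccnd1. They were 0.92 and 0.85 for Ccnd3, and -1.27 and -1.44 for Ccng2. In these fits the spread within a group could come only from the 5-FU pair. With no filter on low values 0 of the 10 genes passed as well, with adjusted p from 0.085 to 0.12 for the 4 genes. There 4 of the 10 had an unadjusted p under 0.05, as did 3680 of all 16391 genes.

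**Figure D1:**
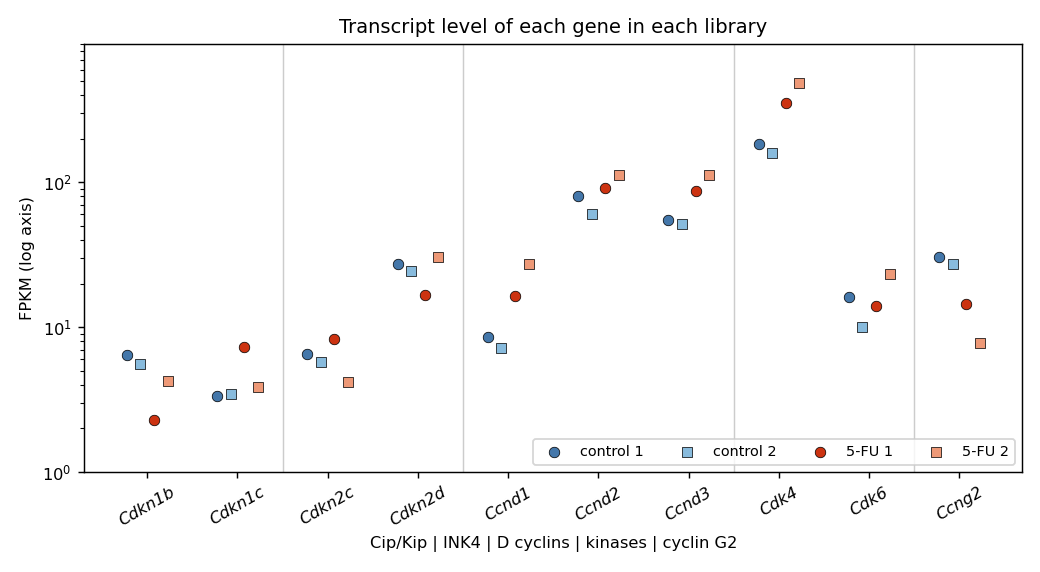
Level of each of the 10 genes in each of the 4 libraries, in FPKM on a log axis, with blue points for control recipients and red points for 5-FU recipients (circles, recipient 1, and squares, recipient 2). Cdk4 is the most abundant in every library, from 160.3 to 484.9 FPKM, and Ccng2 is lower in both 5-FU libraries than in either control.

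The libraries also differed between groups in the markers of other cells. Counts of markers that rose or fell stand beside 8.23% of all tested genes higher and 4.67% lower. The 10 markers of stem and progenitor cells were above 0 in every library, with summed levels of 471.2 to 592.1 FPKM in control and 498.5 to 738.2 in 5-FU recipients, and 1 of them rose, Ly6a, which encodes Sca1. The 15 macrophage markers were also above 0 in every library. They summed, for recipients 1 and 2, to 25539 and 29869 FPKM in the control pair and to 22090 and 11614 in the 5-FU pair, and 3 of 15 fell. All 15 had a log2 fold change below 0 (median -0.95), where 49.2% of all tested genes were above 0. In limma 10 of the 15 had an unadjusted p under 0.05, beside 3607 of all 11496 tested genes. Granulocyte markers summed to 10109 to 12723 FPKM in control and 3573 to 3778 in 5-FU recipients (6 of 11 fell), erythroid markers to 488.7 to 733.0 and 59.3 to 66.9 (6 of 7 tested fell), and B lineage markers to 421.1 to 432.1 and 177.5 to 234.6 (4 of 7 tested fell). Among the defining markers, Alas2 was listed at 0 in 5-FU recipient 1 and Pax5 in all libraries but 5-FU recipient 1. Of T and NK cell markers 1 of 3 tested rose, Nkg7, and the other 2 did not pass. The list summed to 94.3 to 111.2 FPKM in control and 187.0 to 317.4 in 5-FU recipients. Nkg7 made up nearly all of this sum in every library, so the sum does not stand for the list. Cd3d, Cd3e, Cd3g or Gzma was at 0 in some libraries. None of 5 tested megakaryocyte markers passed (sums of 109.6 to 128.4 and 104.1 to 115.6 FPKM), nor any of 4 tested endothelial and stromal markers (37.5 to 39.5 and 25.0 to 33.4), and in limma 0 of these 9 had an unadjusted p under 0.05. All 6 markers of cycling cells rose, from sums of 72.2 and 84.7 to 295.0 and 407.5 FPKM. The part of these cell types in the differences below was not tested, and in bulk RNA fewer cells of a type and less RNA per cell cannot be told apart.

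Cdk4 encodes a kinase that works only with a bound D cyclin (chromosome 10, 127063535 to 127067288; coordinates are GRCm38.p6, the assembly that mm10 names). It had 182.5 and 160.3 FPKM in the control pair against 351.3 and 484.9 in the 5-FU pair, where each pair is given as recipient 1 and then recipient 2. The groups did not overlap, and the lower 5-FU library was 2.05 times the control mean. The means were 171.4 ± 15.7 and 418.1 ± 94.5 FPKM (mean ± SD, n = 2 and 2), a log2 fold change of 1.27 (95% interval 0.73 to 1.80, adjusted p = 0.018). Of the 10 genes it had the smallest p, and it was the 1 that still passed without a mean-variance trend. Tspan31, a tetraspanin gene on the opposite strand, shares 641 of the 3249 annotated exon bases of Cdk4, and the labels do not say whether reads were assigned by strand. Tspan31 had 119.6 and 127.3 FPKM in the control pair against 138.1 and 97.8 in the 5-FU pair (log2 fold change -0.09, adjusted p = 0.82).

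The stretch before the Cdk4 start is shown because it holds 4 copies of CACGTG, the E-box letters that MYC and related factors bind, and the stretch at Cdk6 because it holds 1. The sequences are from RefSeq (GRCm38.p6, chr10:127063285-127063533 and chr5:3343643-3343731, plus strand) and end where annotated exons begin. The stretch at Cdk6 lies before an inner start, within the annotated gene and outside its exons. The capitals mark the E-box letters.
Cdk4: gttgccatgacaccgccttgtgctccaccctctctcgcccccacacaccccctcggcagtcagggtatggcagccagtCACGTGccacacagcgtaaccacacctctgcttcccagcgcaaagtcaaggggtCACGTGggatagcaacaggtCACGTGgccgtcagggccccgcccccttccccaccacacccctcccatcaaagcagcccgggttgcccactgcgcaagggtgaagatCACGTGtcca
Cdk6: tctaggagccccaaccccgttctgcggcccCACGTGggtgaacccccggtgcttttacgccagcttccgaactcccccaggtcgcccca

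The letters CACGTG occur in 6.02% of the 32851 stretches of 250 bases before a start in the RefSeq table, and 7 of these stretches, or 0.0213%, hold 4 or more copies. The E-boxes of Cdk4 begin 172, 118, 98 and 11 bases before the start, and that of Cdk6 begins 220 bases before it. Of the 10 genes 7 matched the table, with 9 starts, and Ccnd1, Ccnd2 and Cdkn1c did not. Besides the E-box, 3 other motifs were searched on both strands. The FOXO letters GTAAACA, in 3.17% of all stretches, occurred once, in reverse, 243 bases before the first start of Ccnd3. The E2F letters TTTCCCGC, TTTGGCGC, TTTCGCGC and TTTGCCGC, in 1.86% of stretches together, and the CHR letters TTTGAA and TTCGAA, in 17.1%, were not in these 9 windows. Such matches are a description of the letters only.

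Cdk6, the other partner kinase (chromosome 5, 3341004 to 3531008), had 16.1 and 10.1 FPKM in the control pair against 13.9 and 23.2 in the 5-FU pair. The groups overlapped, since 5-FU recipient 1 lay between the controls. The log2 fold change was 0.47 with a 95% interval of -0.29 to 1.22 (adjusted p = 0.36), which includes both no change and a rise near that of Cdk4. Single libraries moved this value: it was 0.78 and 0.16 without control recipient 1 or 2, and 0.82 and 0.12 without 5-FU recipient 1 or 2, and none of these passed (adjusted p from 0.054 to 0.90). Cdk4 was 11.4 and 15.9 times Cdk6 in the control pair and 25.3 and 20.9 times in the 5-FU pair, so the ratio of the kinases was higher in both 5-FU libraries. With 2 libraries against 2, an exact permutation test cannot go below p = 0.33, and no test of a ratio is given here.

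Among the D cyclins, Ccnd1 had the lowest level and the largest log2 fold change, and differences among the 3 in their response were not tested. Ccnd1 (cyclin D1, chromosome 7, 144929931 to 144939831) had 8.56 and 7.15 FPKM in the control pair against 16.4 and 27.4 in the 5-FU pair. Both 5-FU libraries were at least 2.08 times the control mean, and they differed from each other by 1.67 times. The log2 fold change was 1.33 (95% interval 0.64 to 2.02, adjusted p = 0.030). Of the 4709 annotated exon bases of Ccnd1, 1100 are shared with a gene on the opposite strand, listed in the files as Oraov1. Oraov1 had 10.5 and 12.4 FPKM in the control pair against 12.8 and 8.53 in the 5-FU pair (adjusted p = 0.81 in limma). The part of the shared bases in the value of Ccnd1 was not tested.

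Ccnd3, cyclin D3 (chromosome 17, 47505051 to 47599689), had 54.6 and 51.7 FPKM in the control pair against 87.2 and 112.2 in the 5-FU pair. The groups were apart, and the controls differed little from each other. Its log2 fold change was 0.89 (95% interval 0.41 to 1.36, adjusted p = 0.032). It shares 361 of 8775 exon bases with Bysl, a ribosome assembly gene on the opposite strand that rose as well (log2 fold change 1.25, adjusted p = 0.018), from 10.6 and 11.5 to 25.0 and 30.6 FPKM. The part of the shared bases in the value of Ccnd3 was not tested.

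Ccnd2, cyclin D2 (chromosome 6, 127125162 to 127152188), had 80.0 and 60.5 FPKM in the control pair against 91.2 and 111.5 in the 5-FU pair. Both 5-FU libraries were above both controls, but the controls lay farther apart than the gap between the groups. The log2 fold change of 0.53 did not pass (95% interval 0.02 to 1.04, adjusted p = 0.15), and it passed at 0.67 without 5-FU recipient 1 (adjusted p = 0.024).

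The sum of the 3 D cyclins was 143.1 and 119.3 FPKM in the control pair against 194.8 and 251.1 in the 5-FU pair. Ccnd2 made up 55.9% and 50.7% of that sum in the control pair and 46.8% and 44.4% in the 5-FU pair. The share of Ccnd3 was 38.1% and 43.3% in control against 44.8% and 44.7% in 5-FU recipients, and that of Ccnd1 was 5.98% and 6.0% against 8.40% and 10.9%. Ccnd2 was 1.47 and 1.17 times Ccnd3 in control recipients. In 5-FU recipients it was 1.05 and 0.99 times Ccnd3. Cdk4 and Cdk6 together were 1.39 and 1.43 times the D cyclins in the control pair and 1.87 and 2.02 times in the 5-FU pair.

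**Figure D2:**
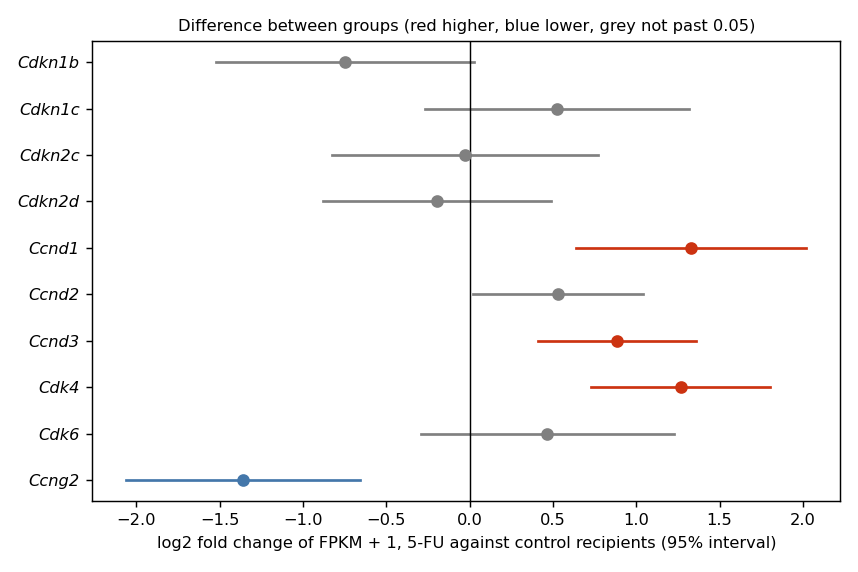
Log2 fold change of FPKM + 1 in 5-FU against control recipients for each gene (point) with its 95% interval from limma (line), in red where higher, blue where lower and grey where the adjusted p was not under 0.05. The 4 inhibitors, Ccnd2 and Cdk6 did not pass, and the interval of Ccnd2 begins at 0.02.

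The inhibitors were the least abundant of the genes, apart from Cdkn2d, and their differences had no common sign. Cdkn1b, whose protein p27 restrains cyclin E and Cdk2 and is controlled largely by its breakdown (chromosome 6, 134920401 to 134925525), had 6.46 and 5.53 FPKM in the control pair against 2.28 and 4.26 in the 5-FU pair. Both 5-FU libraries were below both controls. The log2 fold change was -0.75 with a 95% interval of -1.52 to 0.02 (adjusted p = 0.17). Cdkn1c, an imprinted gene expressed from the maternal copy (chromosome 7, 143458339 to 143461059), had 3.38 and 3.47 FPKM in the control pair against 7.29 and 3.88 in the 5-FU pair. The higher mean came from 5-FU recipient 1, and recipient 2 was 1.13 times the control mean (log2 fold change 0.52, 95% interval -0.27 to 1.32, adjusted p = 0.33, and 0.14 without 5-FU recipient 1). Of the 2039 annotated exon bases of Cdkn1c, 625 are shared with an antisense gene. Cdkn1b was 1.91 and 1.59 times Cdkn1c in control recipients. In 5-FU recipient 1 it was 0.313 times Cdkn1c and in recipient 2 it was 1.10 times. The sum of Cdkn1b and Cdkn1c was 9.83 and 9.0 FPKM in the control pair against 9.57 and 8.14 in the 5-FU pair, so the groups overlapped.

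Cdkn2d, the INK4 inhibitor p19 (chromosome 9, 21288459 to 21291421), was the most abundant inhibitor of the 4 in each library, with 27.3 and 24.5 FPKM in the control pair against 16.7 and 30.3 in the 5-FU pair. The 5-FU libraries lay on either side of the controls (log2 fold change -0.19, 95% interval -0.88 to 0.49, adjusted p = 0.69). Cdkn2c, the INK4 inhibitor p18 (chromosome 4, 109660876 to 109666756), had 6.52 and 5.72 FPKM in the control pair against 8.31 and 4.22 in the 5-FU pair, and again the 5-FU libraries lay on either side (log2 fold change -0.03, 95% interval -0.83 to 0.77, adjusted p = 0.96). The 2 genes differed in opposite ways between the 5-FU recipients: Cdkn2d was 1.82 times as high in recipient 2 as in recipient 1, and Cdkn2c 0.507 times. Cdkn2d was 4.19 and 4.29 times Cdkn2c in control recipients and 2.01 and 7.19 times in 5-FU recipients 1 and 2.

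The ratio of the 4 inhibitors to the D cyclins was lower in both 5-FU libraries than in either control, a difference given with no test. Their summed FPKM was 0.305 and 0.329 times that of the D cyclins in the control pair and 0.177 and 0.170 times in the 5-FU pair. The sum of the inhibitors itself overlapped between groups, at 43.7 and 39.2 against 34.5 and 42.6 FPKM. The direction of the ratio turned when Cdkn1a was counted with the inhibitors. Cdkn1a encodes p21, the Cip/Kip inhibitor that p53 induces, and had 4.82 and 3.38 FPKM in the control pair against 79.2 and 64.2 in the 5-FU pair (log2 fold change 3.84, adjusted p = 0.00057, and 0.054 with no filter on low values). It made up 9.93% and 7.94% of the summed FPKM of the 5 inhibitors in the control pair and 69.6% and 60.1% in the 5-FU pair. With it the ratio was 0.339 and 0.357 in the control pair and 0.584 and 0.426 in the 5-FU pair. These are ratios of transcripts and not of proteins, and the addition of Cdkn1a was chosen after its values were seen.

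**Figure D3:**
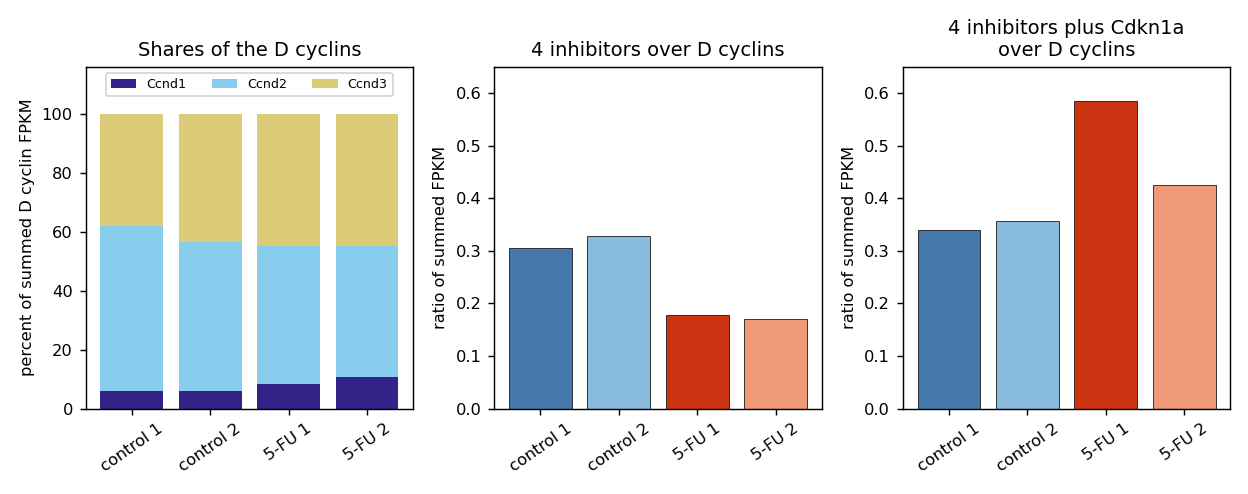
Left, the share of each D cyclin in their summed FPKM, in percent, in the 4 libraries. Middle and right, the summed FPKM of Cdkn1b, Cdkn1c, Cdkn2c and Cdkn2d over that of the D cyclins, without and with Cdkn1a. The middle bars are lower in the 5-FU libraries (0.177 and 0.170) and the right bars are higher (0.584 and 0.426).

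Ccng2 (chromosome 5, 93267573 to 93276231) had 30.6 and 27.1 FPKM in the control pair against 14.5 and 7.76 in the 5-FU pair. It was lower in each 5-FU library than in either control, at 0.501 and 0.269 times the control mean. The means were 28.9 ± 2.49 and 11.1 ± 4.74 FPKM (mean ± SD, n = 2 and 2), and the log2 fold change was -1.36 (95% interval -2.06 to -0.65, adjusted p = 0.030). No annotated exon of another gene overlaps it. In control recipients Ccng2 was above Ccnd1, which was 0.279 and 0.264 times as high, and in 5-FU recipients Ccnd1 was 1.13 and 3.53 times Ccng2.

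By level, the order in control recipients was Cdk4, Ccnd2, Ccnd3, Ccng2, Cdkn2d, Cdk6, Ccnd1, Cdkn2c, Cdkn1b and Cdkn1c. Ccng2 and Cdkn2d, and Cdkn2c and Cdkn1b, overlapped between the control libraries, and the other neighbours did not. In 5-FU recipients the order was Cdk4, Ccnd2, Ccnd3, Cdkn2d, Ccnd1, Cdk6, Ccng2, Cdkn2c, Cdkn1c and Cdkn1b. There each neighbouring pair overlapped except Cdk4 with Ccnd2 and Ccnd3 with Cdkn2d. The mean percentile among tested genes went from 95.1 to 97.7 for Cdk4, from 37.2 to 62.1 for Ccnd1 and from 71.4 to 44.9 for Ccng2.

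5-FU recipient 2 stood farther from the controls than 5-FU recipient 1 for each gene that passed. It had 1.38 times the Cdk4, 1.67 times the Ccnd1, 1.29 times the Ccnd3 and 0.537 times the Ccng2 of recipient 1. These are ratios of FPKM as given, not rescaled to equal totals. The FPKM of all genes summed to 762107 in 5-FU recipient 2 and 678270 in 5-FU recipient 1, and to 680412 and 678222 in the control pair. 5-FU recipient 2 also had the lowest macrophage sum and the highest sum of cycling markers, the values given above. The part of these sums was not tested. Cdkn1b and Cdkn1c went the other way, with 5-FU recipient 1 farther from the controls.

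**Figure D4:**
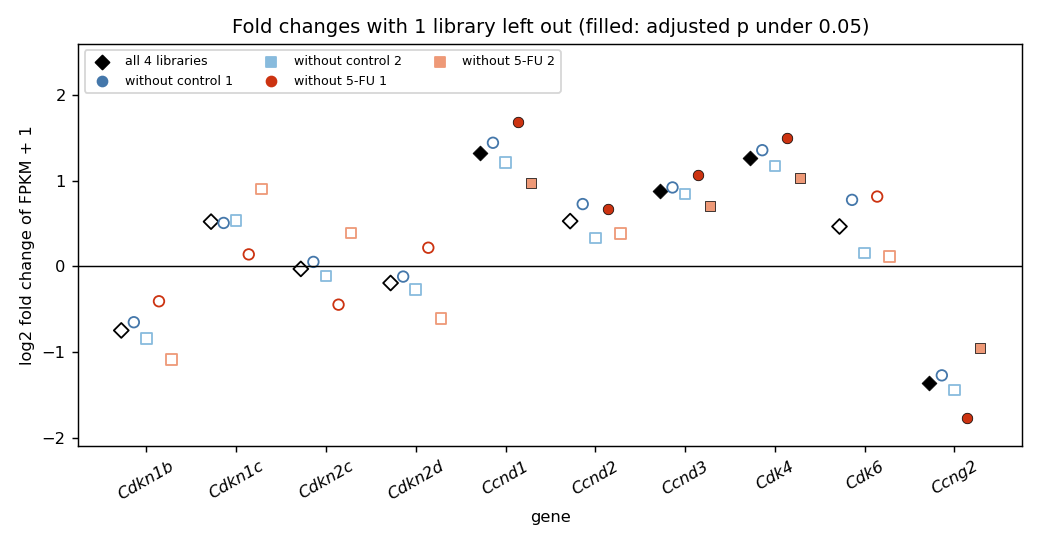
Log2 fold change of FPKM + 1 for each gene with all 4 libraries (diamond) and with 1 library left out (circles and squares), filled where the adjusted p was under 0.05. Ccnd1, Ccnd3, Cdk4 and Ccng2 keep their sign in each fit, and Cdkn2c and Cdkn2d lie on both sides of 0.

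The genes with the most similar course over the 4 libraries were found by the root mean square distance between centred log2(FPKM + 1) values, among genes of like mean level, and 4 points make such a likeness weak. For Cdk4 they were Cct8, a subunit of the cytosolic chaperonin (distance 0.0060), and the translation initiation factor gene Eif3g (0.016). For Ccnd1 they were Chaf1b, a subunit of the chromatin assembly factor that works at replication forks (0.052), and Mipep, a mitochondrial peptidase gene (0.073). Ccnd3 was nearest to Gtf3a (0.015), the RNA polymerase III factor gene, and to the proteasome gene Psmc4 (0.015). Ccng2 was nearest to Arrdc4 (0.027), an arrestin-domain gene related to Txnip, and to the fatty acid transporter gene Slc27a4 (0.071). Arrdc4 had 17.2 and 15.4 FPKM in the control pair against 8.30 and 4.23 in the 5-FU pair.

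Of the other genes of the pathway, 63 in 6 lists, 61 were tested, and 9 rose and 7 fell, with a median log2 fold change of 0.26. Over all tested genes 8.23% were higher and 4.67% lower, with a median of -0.01. Downstream of Cdk4, 5 of 18 genes of the RB, E2F and cyclin E steps rose, 1 fell and 12 did not pass (median 0.59). Ccna2, the cyclin of S phase and mitotic entry, rose by 1.94, Tfdp1, the E2F dimer partner, by 1.69, Ccne2, cyclin E2, by 1.51, the repressor E2f8 by 1.5, and E2f1 by 0.86. The 1 that fell was Tfdp2, another dimer partner, at -1.56, a gene named for that reason. Rb1, the retinoblastoma gene, had 24.04 and 22.6 FPKM in the control pair against 14.1 and 12.4 in the 5-FU pair and did not pass (log2 fold change -0.77, adjusted p = 0.058), and cyclin E1, Ccne1, did not pass either (0.56, adjusted p = 0.28). In this list 2 and 1 genes rose without control recipient 1 or 2 (9 and 4 at an unadjusted p under 0.05), and 9 without 5-FU recipient 1, where 18.5% of all tested genes were higher. With no filter on low values 0 genes of the 6 lists passed in limma. There 31 of 62 had an unadjusted p under 0.05, beside 3680 of all 16391 genes. In the list of MuvB and DREAM, complexes that hold cell cycle genes silent or switch them on, Mybl2 rose by 2.04 and 6 of 7 did not pass (median 0.26), and 3 rose without 5-FU recipient 1, again where 18.5% of all genes did.

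Among 16 genes for the turnover of p27 and D cyclins 2 rose, none fell and 14 did not pass (median 0.27). Of all tested genes 8.23% rose. Cks1b, the cofactor with which SCF-Skp2 recognises p27, had 53.6 and 59.3 FPKM in the control pair against 136.5 and 242.2 in the 5-FU pair (log2 fold change 1.67, adjusted p = 0.016). Dtl, which brings p21 and other proteins to the CUL4 ligase, rose by 1.11. Without control recipient 1 or 2 none of the list rose in limma (3 and 2 at an unadjusted p under 0.05), and 5 did without 5-FU recipient 1, with the same 18.5% over all genes. Skp2 itself had 34.7 and 33.7 FPKM in the control pair against 42.9 and 26.2 in the 5-FU pair, on either side of the controls (log2 fold change -0.03, 95% interval -0.63 to 0.58, adjusted p = 0.95). None of 5 genes for the assembly and activation of the kinases passed in limma (median 0.67). In the same fit 3 of them had an unadjusted p under 0.05, as did 3607 of all 11496 tested genes. Without 5-FU recipient 1, 3 of the 5 rose, and 1 did without 5-FU recipient 2, where 18.5% and 9.08% of all tested genes were higher. Of the other inhibitors and cyclin G1, 1 of 4 tested genes passed, Cdkn1a, and Cdkn2a was listed at 0 in all libraries (median 0.84). In limma 3 of the 4 had an unadjusted p under 0.05, and 2 of the 4 rose with either 5-FU library left out, beside the same 18.5% and 9.08%.

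Of 11 tested FOXO factors and genes linked to FOXO and rest, 6 fell, none rose and 5 did not pass. Their median log2 fold change was -1.11, and all 11 were below 0. Over all tested genes 4.67% were lower, and 49.2% had a positive log2 fold change. This list, like the others, was chosen with earlier results of these data known. Klf2, a factor of quiescent lymphocytes and endothelium, had 123.6 and 117.7 FPKM in the control pair against 34.4 and 25.3 in the 5-FU pair (log2 fold change -2.0, adjusted p = 0.0065). Klf4 was at -1.89 in log2 fold change, the antiproliferative gene Btg1 at -1.15 and Sesn1, a sestrin that restrains mTORC1, at -1.11. The other genes that fell were Pik3ip1, an inhibitor of PI3-kinase, at -1.46 and Txnip at -1.23, named after their values were seen. Foxo3 was near the limit of the filter at 0.327 to 1.5 FPKM in all libraries (log2 fold change -0.04, adjusted p = 0.96). Without control recipient 1 or 2 the count that fell was 1 (7 and 6 at an unadjusted p under 0.05), and without 5-FU recipient 1 or 2 it was 7, where 16.3% and 6.65% of all tested genes were lower. Klf2 and Klf4 are also known as early response genes. In a separate list of handling and early response genes 4 of 8 fell, with sums of 1044 and 1039 FPKM in the control pair against 527.3 and 380.6 in the 5-FU pair, and the part of handling was not tested.

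**Figure D5:**
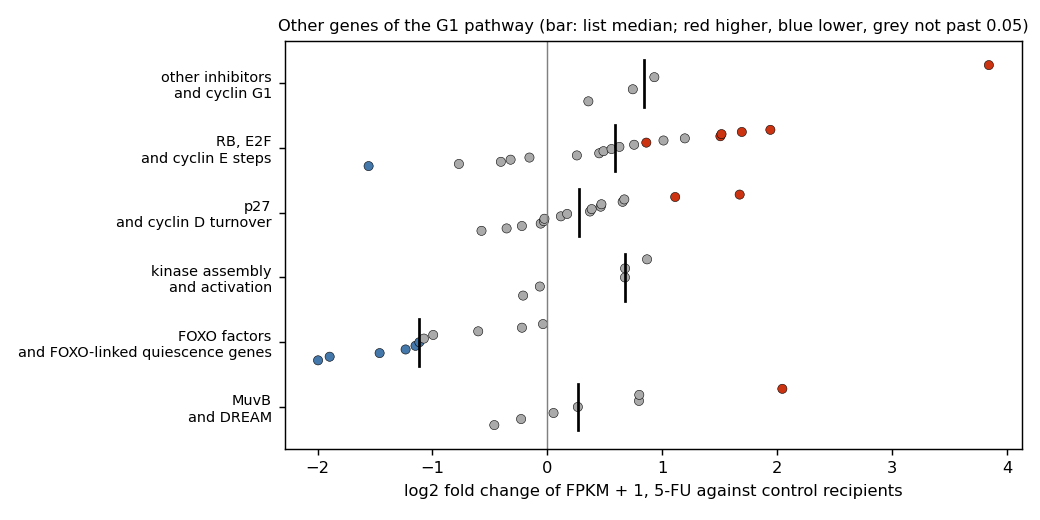
Log2 fold change of FPKM + 1 in 5-FU against control recipients for each tested gene of 6 lists of the pathway (points; red higher, blue lower, grey not past an adjusted p of 0.05), with the list median as a bar. The FOXO-linked list lies below 0 with a median of -1.11, and the list of RB, E2F and cyclin E steps lies mostly above 0 with a median of 0.59.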

How the data were processed

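Per the submitters' processing notes, TopHat2 2.0.13, Bowtie2 2.2.3, SAMtools 0.1.19 and Cuffnorm 2.2.1 were used with the build mm10. The authors deposited 1 table of FPKM per library, on the scale that Cuffnorm gives. The scaling setting, annotation and depth were not in the labels used here, so no counting error can be stated. Per the labels' protocols, cDNA was made with a SMART-Seq kit and read as single ends. The files of both 5-FU libraries name day 3 in their column header and day 2 in their file name, and those of the controls day 0 in both. Groups and the times given here come from the labels, which do not say what these days are counted from.

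The test used log2(FPKM + 1) of genes that reached 1 FPKM in 2 or more of the 4 libraries. It was limma 3.58.1 under R 4.3.3 (mean-variance trend, two-sided, Benjamini-Hochberg adjustment over 11496 genes, 2 residual degrees of freedom plus a prior of 5.62). Fold changes on this scale understate those of low genes. The code was tested on simulated data. P-values rest on the spread between biological replicates, which limma draws toward that of genes of like level. The labels do not say whether donor cells were pooled.

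The 10 genes, lists, marker sets, motifs and naming rule were chosen with earlier results of these data known. The rule takes all 10 genes, up to 4 passing genes of smallest p per list, Cdkn1a, Rb1, E2f1, Skp2, Foxo3 and Ccne1 whatever their p, and the 2 nearest genes of each of the 10 that passed. Listed genes matched by symbol, except 1 macrophage marker by synonym. Exon overlaps use GENCODE M21. The values of 1 marker gene are not reported here.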

Additional observations from a re-analysis of the deposited data

How the results depend on the processing

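The fold changes of the 10 genes kept their sign and their side of the threshold under both other pseudocounts, TPM and median-ratio scaling, robust eBayes and the replicate block. Higher and lower counts over all genes were 3 and 4 without the filter on low genes, a setting in which 3680 genes had an unadjusted p under 0.05, and 548 and 299 without a mean-variance trend. Among the 10 genes they were 0 and 0 with no filter, and 1 and 0 without the trend. With 1 library left out, the lone library being assumed to vary like the other group, the counts over all genes ran from 88 to 2122 higher and from 38 to 1876 lower, and among the 10 genes from 0 to 4 higher and from 0 to 1 lower. Cdkn2c, at -0.03 in log2 fold change, was 0.0092 with quantile normalization and -0.45 to 0.39 with 1 library left out (0.05 without control recipient 1 and 0.39 without 5-FU recipient 2), and Cdkn2d was -0.61 to 0.22 (0.22 without 5-FU recipient 1).

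Replicate numbers pair nothing that the labels name, and the replicate 1 minus 2 differences of the groups correlated at -0.16 over tested genes. Under the replicate block the adjusted p of Ccng2 was 0.010 and of Ccnd3 0.046. A crossed replicate block, tried after seeing the data, gave 1686 higher and 1365 lower genes. Counts in the pathway lists were recomputed under the alternatives after seeing the data. The filter of 5 FPKM leaves out 1 of the 10 genes, Cdkn1c, and depth cannot be set against any value.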
